A study of Rattus norvegicus with 25 samples.

Results

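Offspring of 2 groups of rat dams that ate less than control dams in gestation were set, as 1 unit, against offspring of dams that ate freely. The unit is made of the Nic arrays (n = 7) and the Con-Pf arrays (n = 10), that is 17 of the 25 arrays of the series, and it is compared with the 8 Con arrays. Each group entered with the same weight, so that the contrast is the mean of the Nic and Con-Pf group means minus the Con mean, and it is called reduced intake minus Con from here on. Members were chosen by the titles of the samples and not by any measured value.

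The tissue was striatum of male Lister Hooded rats killed between postnatal day 35 and 42, with 1 array per rat. Nic dams drank nicotine in place of plain water, before and throughout pregnancy. Con-Pf dams drank no nicotine and were given, day by day, the weight of food that matched Nic dams had eaten. Con dams drank no nicotine and were not restricted. Nicotine and lower food intake come together in every Nic animal and cannot be told apart within that group. Lower food intake is what the design set alike in Nic and Con-Pf dams, and their body weight and fluid intake, which the study also followed, were not analysed here. Litters are not given in the sources used here, so p-values measure the spread between these rats. The methods list fewer Con-Pf dams than there are Con-Pf arrays, so if the rats came from those dams some are littermates and p-values can be too small. Con-Pf 9 and Con-Pf 10 are Con-Pf by title but are described as controls, and were treated as Con-Pf. The group sizes stated with the study's array statistics also differ from those of the titles. Grouped by title, the log2 difference of Con-Pf minus Con was 1.44 for Nr4a1, 1.22 for Egr2 and 1.07 for Fos. The study prints the same values for these genes. In Nr4a1, Con-Pf 9 and Con-Pf 10 lay at 10.98 and 11.05, against at most 9.92 in Con. The study's methods state that equal numbers per group were extracted on each day, and the days were not used here.

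The striatum is the input nucleus of the basal ganglia and takes part in movement, habit and reward. Most of its neurons are inhibitory projection neurons that receive glutamate from cortex and thalamus and dopamine from the midbrain. When such neurons are excited, calcium and MAP kinase signals switch on immediate early genes within minutes. Some of these encode transcription factors, such as the Fos, Egr and Nr4a families, and others encode effectors at the synapse, such as Arc. The dual specificity phosphatases are induced by the same signals and switch MAP kinases off again. A second, slower programme in the same cells is the circadian clock, in which Bmal1 and its partner Clock drive the Per, Cry, Nr1d and Dbp families through E-boxes, and these products feed back on Bmal1. In bulk tissue such as this, fewer cells of a type and less RNA per cell cannot be told apart.

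Promoter sequences are given first for 6 of the genes on which the results turn, since they show the elements through which these programmes are known to act. They are taken from RefSeq promoter windows of build GRCr8, which hold 250 bases before and 50 bases after each gene's start. Of the 73 called probe sets with 1 gene identifier, 63 had such a window, and the counts of elements cover only these. Arc, Fos and Nr4a3 were among the other 10. The part printed is 90 bases upstream of the start, 5′ to 3′ on the strand of the gene, and the capitals mark the element named.
Egr1, CArG boxes, chr18:26736938-26737027, plus strand: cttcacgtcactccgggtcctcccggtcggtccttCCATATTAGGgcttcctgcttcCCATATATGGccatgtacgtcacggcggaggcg
Egr2, CArG box, chr20:21054492-21054581, minus strand: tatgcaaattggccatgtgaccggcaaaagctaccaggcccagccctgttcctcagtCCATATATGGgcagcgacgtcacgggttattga
Dusp5, CArG boxes, chr1:262543634-262543723, plus strand: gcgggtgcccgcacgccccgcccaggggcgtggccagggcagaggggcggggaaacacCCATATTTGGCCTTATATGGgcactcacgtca
Tef, E-box, chr7:115206587-115206676, plus strand: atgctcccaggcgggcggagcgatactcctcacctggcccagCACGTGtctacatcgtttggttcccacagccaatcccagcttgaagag
Bhlhe40, E-box, chr4:143174210-143174299, plus strand: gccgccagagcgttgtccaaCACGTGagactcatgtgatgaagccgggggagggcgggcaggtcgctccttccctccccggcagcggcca
Bmal1, ROR response element, chr1:176766238-176766327, plus strand: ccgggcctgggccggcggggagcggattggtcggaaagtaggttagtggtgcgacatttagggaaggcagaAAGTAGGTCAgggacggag

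The CArG box is the element bound by serum response factor, which MAP kinase and actin signals act on. It was found in 1.64% of 27457 RefSeq promoter windows and in 3 of the 63 windows of called genes, namely Egr1 and Dusp5 with 2 each and Egr2 with 1. Both boxes of Dusp5 lie side by side, with no base between them. The E-box, searched as CACGTG, was in 6.65% of all windows and in 8 of the 63, which were Abhd11, B3galt2, Bcl6, Bhlhe40, Cited2, Slc24a4, Tef and Tmem39a. The ROR response element, to which the Nr1d proteins and their ROR counterparts bind, was in 6.54% of all windows and in 2 of the 63, Bmal1 and Prr13. The cyclic AMP response element, searched as TGACGTCA, was in 1.91% of all windows and in 6 of the 63, Dctn3, Ell2, Gpcpd1, Pdcl3, Scg2 and Tmem39a. The D-box, the element of the Dbp and Tef family, was searched as TTATGTAA and TTACGTAA and was in 1.01% of all windows and in 0 of the 63. All searches covered both strands, and no element searched contains another. A match is a description of these letters only.

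Of the 14607 probe sets in the brighter part of the table, 88 were called in reduced intake minus Con at an adjusted p under 0.05 (limma, Benjamini-Hochberg over all 14607), which is 0.602%. The split was 72 higher and 16 lower, and the smallest adjusted p was 6.36e-05. After a further quantile normalization of the deposited values the split was 44 higher and 23 lower, so that the share of higher calls went from 81.8% to 65.7%. Counted as genes, with each gene taken by its brightest probe set, 61 of 8989 rose (0.679%) and 11 fell (0.122%). The calls were small, with sizes from 0.14 to 0.96 on the log2 scale, a median of 0.28 and 52 of 88 under 0.3. At the thresholds of the study's methods, an unadjusted p under 0.01 and a log2 difference of at least 0.5, 7 probe sets passed (0.0479%), all 7 higher. By limma 184 of the 14607 were called in Con-Pf minus Con (1.26%) and 0 in Nic minus Con (0%), where the smallest adjusted p was 0.268 and 2370 were at an unadjusted p under 0.05. Of the 88, 78 were called in Con-Pf minus Con and 0 in Nic minus Con, where 74 were at an unadjusted p under 0.05. The contrast that picked the 88 contains both differences, so the counts of 78 and 74 are no separate support. Nic and Con-Pf values below are the parts of the pooled difference, and no Nic part passed by itself. No probe set of the 14607 (0%) had all 17 reduced intake arrays on one side of all 8 Con arrays.

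Con 3 and Con 5 stood apart from the other arrays, at -25.2 and -33.9 on a first principal component that held 30.4% of the variance, while the other 23 lay between -11.6 and 9.63. Without them 22 probe sets were called (0.151%), 17 higher and 5 lower. Of the 88, 20 were among these 22, and all 88 kept their sign. With Con-Pf 9 and Con-Pf 10 left out 60 were called, and with both counted as Con 0 were called by limma, with 2361 at an unadjusted p under 0.05. For comparison, the fit on all arrays had 3607 at an unadjusted p under 0.05, of which 2534 were higher.

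The strongest rises were in immediate early transcription factors. Of 30 listed, 22 were measured, and 10 of these rose and 0 fell, against 0.679% and 0.122% of all genes. The list was drawn up with earlier results of these data known. Many of the 10 were hits of the study in the same arrays, so the count is not independent support. The median log2 difference of the 22 was 0.21, beside 0.02 for all genes, and it was 0.10 in Nic minus Con and 0.26 in Con-Pf minus Con. These last values share the Con arrays. Without Con 3 and Con 5 the median was 0.16 and 3 of the 22, Nr4a1, Egr1 and Egr2, rose. Scores of the list (the mean over its genes of each array's deviation from the mean of all arrays) were -0.33 to -0.09 in Con, -0.28 to 0.03 in Nic and -0.03 to 0.41 in Con-Pf.

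Nr4a1, an orphan nuclear receptor induced by calcium and cyclic AMP, had log2 levels of 9.40 to 9.92 in Con (median 9.62), 9.43 to 10.60 in Nic (median 10.23) and 10.51 to 11.44 in Con-Pf (median 11.11). All 10 Con-Pf arrays and 5 of 7 Nic arrays were above every Con array, and the other 2 Nic arrays lay within the Con range. The pooled difference was 0.96 (95% interval 0.70 to 1.22, adjusted p from limma 0.000165), a 1.94-fold higher level, made up of 0.47 in Nic and 1.44 in Con-Pf. Con-Pf 9 and Con-Pf 10, the arrays described as controls, were at 10.98 and 11.05. Egr2, a zinc finger factor, lay at 7.69 to 8.20 in Con (median 7.83), 7.87 to 8.40 in Nic (median 8.28) and 8.31 to 9.53 in Con-Pf (median 9.15). Here 4 Nic arrays and all 10 Con-Pf arrays were above Con. The difference was 0.76 (95% interval 0.53 to 1.00, adjusted p from limma 0.000642), with 0.30 in Nic and 1.22 in Con-Pf, and Con-Pf 9 and Con-Pf 10 were at 9.29 and 9.17.

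Fos, the partner of Jun proteins in the AP-1 complex, was close to Con in Nic and well above it in Con-Pf. Its levels were 6.82 to 7.45 in Con (median 7.22), 6.94 to 7.70 in Nic (median 7.27) and 7.60 to 8.96 in Con-Pf (median 8.25). Only 1 Nic array was above the Con range, against all 10 Con-Pf arrays. The pooled difference of 0.59 (adjusted p from limma 0.0369) was the mean of 0.10 in Nic and 1.07 in Con-Pf. The AP-1 members Junb (0.47) and Fosl2 (0.49) had the same order, with 0.14 and 0.20 in Nic against 0.79 and 0.78 in Con-Pf. The Fosl2 probe set (10940628) is listed as Fosb by the study and as Fosl2 by the probe annotation used here. Without Con 3 and Con 5 the sizes were close to these, at 0.63 for Fos, 0.48 for Junb and 0.46 for Fosl2, but none of the 3 passed (adjusted p 0.156, 0.0738 and 0.328).

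Egr1, a zinc finger factor like Egr2, lay at 11.77 to 12.18 in Con (median 11.99), 12.10 to 12.24 in Nic (median 12.20) and 12.30 to 12.69 in Con-Pf (median 12.55). Its values were narrowly spread, with 4 Nic and all 10 Con-Pf arrays above Con. The difference was 0.38 (95% interval 0.27 to 0.48, adjusted p from limma 0.000165), and 0.34 without Con 3 and Con 5 (adjusted p 0.00247). Nr4a3, Egr4, Klf4 and Klf10 made up the rest of the 10, at 0.73, 0.36, 0.27 and 0.20. Npas4, which is induced by neuronal depolarization, did not pass (0.44, adjusted p from limma 0.31) and had -0.28 in Nic and 1.16 in Con-Pf. Nr4a2 had the only value under 0 in the list, -0.23, and did not pass either (adjusted p 0.39).

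**Figure D1:**
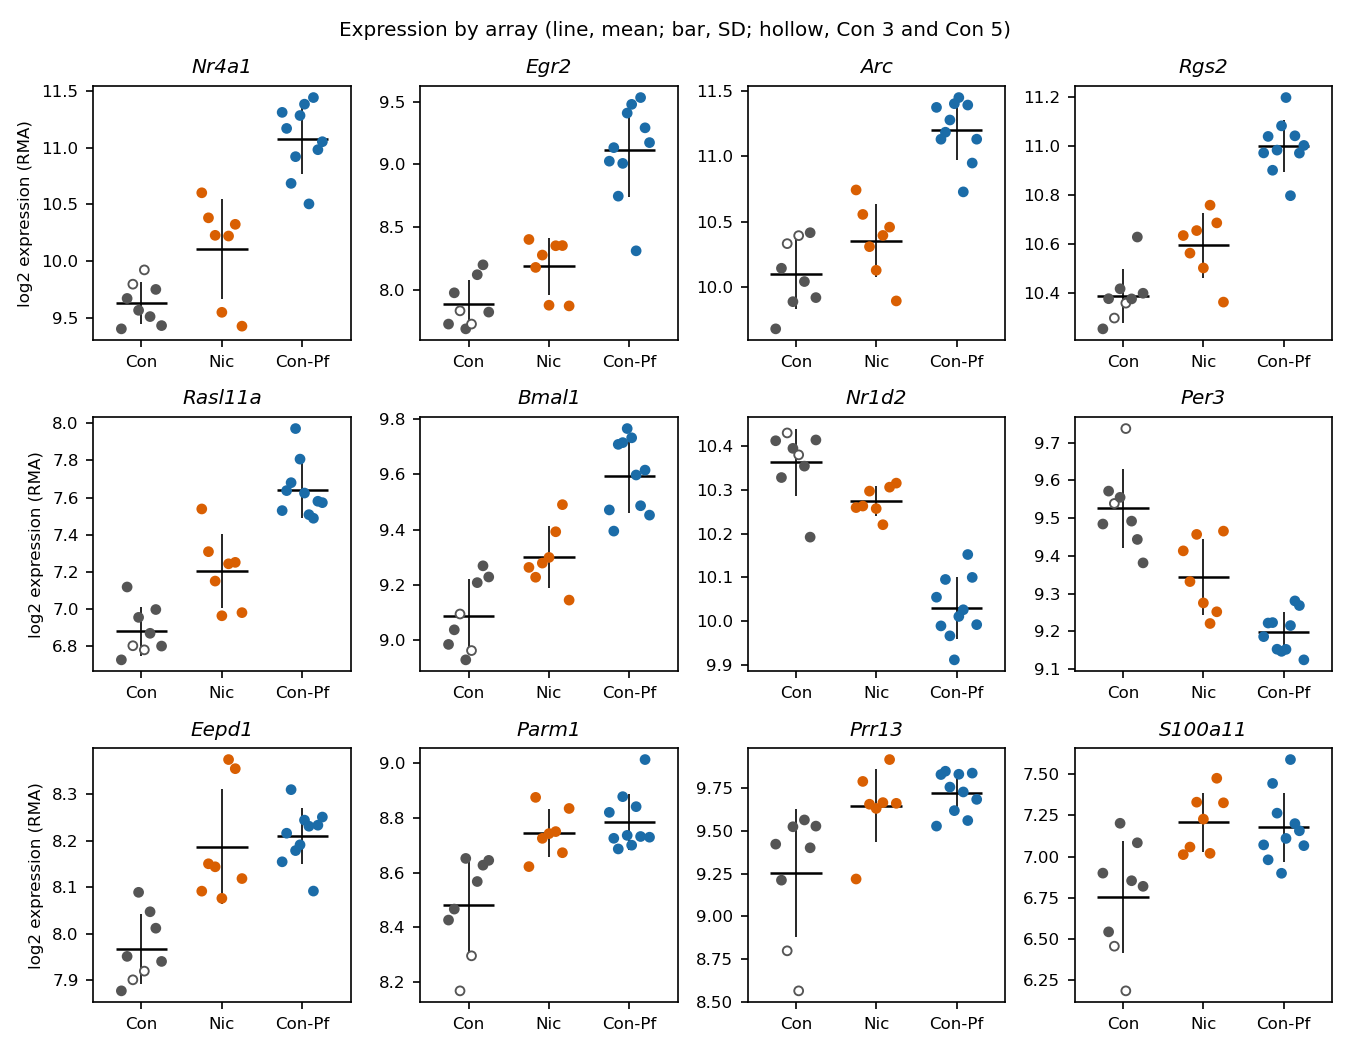
Log2 expression (y axis, RMA) of 12 called genes by array in the 8 Con, 7 Nic and 10 Con-Pf arrays (x axis), with the group mean as a line and the SD as a bar, and with Con 3 and Con 5 drawn hollow. Nr4a1, Egr2, Arc and Rgs2 step up again from Nic to Con-Pf, whereas Eepd1, Parm1, Prr13 and S100a11 lie at a similar height in both.

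Among the activity-regulated effectors, most of which act at the synapse or in signalling, 9 of 27 measured genes rose (34 were listed) and 0 fell. Over all genes 0.679% rose and 0.122% fell. This list too was drawn up with earlier results of these data known. Arc, Rasl11a, Rgs2, Gpr3, Mmp14 and Cited2 were among the study's own hits in these arrays, so the count is not independent support. The median difference of the 27 genes was 0.17, with 0.10 in Nic and 0.24 in Con-Pf. Without Con 3 and Con 5 the median was 0.14 and 7 of the 27 rose. Those 7 are not all among the 9, of which Mmp14, Sik1 and Scg2 did not pass then. Arc, a synaptic protein that takes part in the removal of AMPA receptors, lay at 9.68 to 10.42 in Con (median 10.09), 9.89 to 10.74 in Nic (median 10.40) and 10.73 to 11.45 in Con-Pf (median 11.23). All 10 Con-Pf arrays but only 3 of 7 Nic arrays were above Con. Its difference was 0.68 (95% interval 0.47 to 0.89, adjusted p from limma 0.000642), a 1.60-fold higher level.

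Rasl11a, a small GTPase of the Ras family, and Rgs2, which speeds the switching off of G protein signals, had the smallest adjusted p of all probe sets. Rasl11a levels were 6.73 to 7.12 in Con (median 6.84), 6.96 to 7.54 in Nic (median 7.24) and 7.49 to 7.97 in Con-Pf (median 7.60). In this gene 5 Nic arrays and 10 Con-Pf arrays were above Con, and the difference was 0.54 (95% interval 0.41 to 0.68, adjusted p from limma 6.36e-05), with 0.32 in Nic and 0.76 in Con-Pf. Rgs2 levels were 10.25 to 10.63 in Con (median 10.37), 10.36 to 10.76 in Nic (median 10.63) and 10.80 to 11.20 in Con-Pf (median 10.99). Con 7 alone set the upper end of the Con range, and 4 Nic and 10 Con-Pf arrays were above it. The difference was 0.41 (95% interval 0.31 to 0.51, adjusted p from limma 6.36e-05).

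The other 6 effectors that rose were Gpr3, a receptor that raises cyclic AMP (0.47), Mmp14, a membrane-bound metalloproteinase (0.38), Cited2, a nuclear co-regulator of transcription that binds CBP and p300 (0.37), Trib1, a pseudokinase (0.36), Sik1, a salt-inducible kinase (0.23), and Scg2, a secretory granule protein (0.19). In each of these the Con-Pf difference was above the Nic difference, from 0.70 against 0.23 for Gpr3 to 0.24 against 0.13 for Scg2. Without Con 3 and Con 5 Mmp14, Sik1 and Scg2 had 0.28, 0.22 and 0.16 (adjusted p from limma 0.234, 0.0738 and 0.421). Vgf, a granule protein and neuropeptide precursor, did not pass (0.25, adjusted p from limma 0.066) and had close values, 0.24 in Nic and 0.25 in Con-Pf. Homer1, another synaptic activity gene, was at -0.06 (adjusted p 0.35).

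All 16 genes of the MAP kinase feedback list were measured, at a median difference of 0.08. Of these, 3 rose and 0 fell, against 0.679% and 0.122% of all genes. They were Dusp5 (0.40), Dusp14 (0.40) and Dusp4 (0.35), phosphatases that act on MAP kinases. All 3 were also hits of the study in these arrays, and the list was drawn up with earlier results known. Without Con 3 and Con 5 Dusp4 did not pass (0.33, adjusted p from limma 0.137). Dusp5, whose promoter carries the adjacent CArG boxes shown above, lay at 7.70 to 7.91 in Con (median 7.81), 7.77 to 8.20 in Nic (median 7.96) and 8.16 to 8.62 in Con-Pf (median 8.47). The Con arrays of Dusp5 were tight, and 5 Nic and 10 Con-Pf arrays were above them (adjusted p from limma 0.000501). Dusp1 and Dusp6 did not pass, at 0.37 and 0.23, and their Nic differences were 0.05 and -0.01 against 0.70 and 0.46 in Con-Pf. The Sprouty and Spred genes measured had differences between 0.00 (Spred1) and 0.15 (Spry2), none of which passed.

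In the clock list the members moved in opposite directions. Of 17 measured genes (23 listed), 2 rose and 4 fell, against 0.679% and 0.122% of all genes. The other 11 did not pass, and the median was -0.06. Those that rose were Bmal1 and Nfil3, a repressor at D-boxes. Those that fell were Per3, Bhlhe40, Nr1d2 and Tef. Bmal1, which the study lists as Arntl, was also among its hits in these arrays. The list was drawn up with earlier results known. Without Con 3 and Con 5, 1 rose and 3 fell, namely Bmal1 against Per3, Bhlhe40 and Nr1d2.

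Bmal1 levels were 8.93 to 9.27 in Con (median 9.06), 9.14 to 9.49 in Nic (median 9.28) and 9.39 to 9.77 in Con-Pf (median 9.61). All 10 Con-Pf and 4 of 7 Nic arrays were above Con, and the difference was 0.36 (95% interval 0.25 to 0.47, adjusted p from limma 0.000642), with 0.21 in Nic and 0.51 in Con-Pf. Per3, a period protein of the negative limb of the clock, ran the other way, at 9.38 to 9.74 in Con (median 9.52), 9.22 to 9.47 in Nic (median 9.33) and 9.12 to 9.28 in Con-Pf (median 9.20). It fell by 0.25 (adjusted p from limma 0.000715), with -0.18 in Nic and -0.33 in Con-Pf, and 4 Nic and 10 Con-Pf arrays were below every Con array. Nr1d2, a nuclear receptor that represses Bmal1 through the ROR response element, lay at 10.19 to 10.43 in Con (median 10.39), 10.22 to 10.31 in Nic (median 10.26) and 9.91 to 10.15 in Con-Pf (median 10.02). Its Nic arrays all lay within the Con range, which Con 7 extended downwards, and the difference was -0.21 (adjusted p from limma 0.000713).

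Bhlhe40, a repressor that competes for E-boxes, fell by 0.25 (adjusted p from limma 0.0135), with -0.16 in Nic and -0.34 in Con-Pf. It lay at 10.33 to 10.65 in Con, 10.26 to 10.50 in Nic and 9.96 to 10.32 in Con-Pf, with 3 Nic and all 10 Con-Pf arrays below every Con array. Tef, an activator at D-boxes, fell by 0.16 (adjusted p from limma 0.0104), with -0.11 in Nic and -0.21 in Con-Pf, and 6 Nic and 10 Con-Pf arrays were below Con. Its relative Dbp had -0.24 and did not pass (adjusted p 0.075), nor did Per2 (-0.16), Nr1d1 (-0.10), Cry1 (0.14) or Per1 (0.09). Time of day at death is not given for these arrays in the sources used here, and its part in these values was not tested.

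Apart from the clock, 7 named genes fell. Slc24a4, a sodium, calcium and potassium exchanger, was at 9.45 to 10.12 in Con (median 9.56), 9.23 to 9.68 in Nic (median 9.41) and 9.08 to 9.49 in Con-Pf (median 9.25), a difference of -0.32 (adjusted p from limma 0.0366). Nic 7 was the highest Nic array, above the median of Con. Klf9, a Krüppel-like factor induced by glucocorticoid and thyroid hormone, lay at 10.73 to 11.32 in Con (median 10.93), 10.63 to 10.92 in Nic (median 10.82) and 10.46 to 10.91 in Con-Pf (median 10.53), a difference of -0.31 (adjusted p from limma 0.0196). Its groups overlapped, with 1 Nic and 9 Con-Pf arrays below Con. Con 3 and Con 5 were the highest Con arrays for Slc24a4 and Klf9 alike. Without them Slc24a4 had -0.20 (adjusted p from limma 0.393) and Klf9 -0.21 (adjusted p from limma 0.243), and neither passed.

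Slc19a3, a thiamine transporter, lay at 8.08 to 8.56 in Con (median 8.26), 7.99 to 8.25 in Nic (median 8.10) and 7.65 to 7.99 in Con-Pf (median 7.88). It fell by 0.29 (95% interval -0.40 to -0.19, adjusted p from limma 0.00453) and passed without Con 3 and Con 5 as well (-0.28, adjusted p 0.0327). The others were Dgki, a diacylglycerol kinase (-0.25), Tiam1, an activator of Rac (-0.22), Gpcpd1, which breaks down glycerophosphocholine (-0.21), and Ifrd2 (-0.19). In these 4 the adjusted p without Con 3 and Con 5 was 0.445, 0.265, 0.406 and 0.406. The 5 genes next in line among the falls did not pass. They were Slc7a5, a transporter of large neutral amino acids (-0.24, adjusted p from limma 0.0559), Tsc22d3 (-0.13), Reln (-0.31), Dhx35 (-0.20) and Atosa (-0.15).

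**Figure D2:**
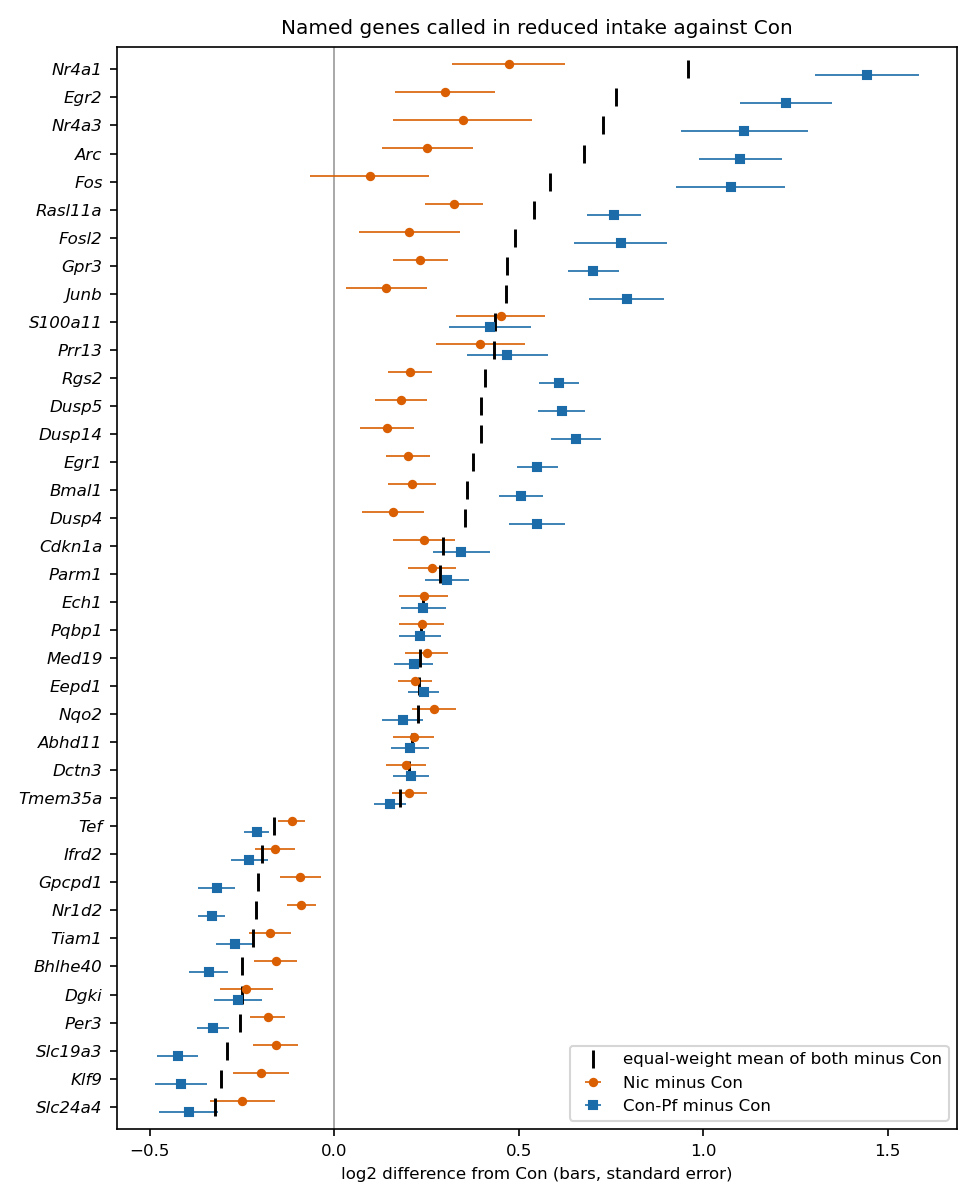
Log2 difference from Con (x axis) of the named genes that were called (y axis), with Nic minus Con as orange circles, Con-Pf minus Con as blue squares, standard errors as bars, and the equal-weight mean of both as a black mark. From Nr4a1 to Junb the squares lie far to the right of the circles, whereas from Cdkn1a to Tmem35a circles and squares lie close together between 0.15 and 0.34.

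Whether Nic and Con-Pf differed from each other was tested with Con-Pf minus Nic. The Con mean does not enter this contrast, though the Con arrays enter its estimate of the spread, and it does not test whether both groups differ from Con. Of all 14607 probe sets 27 were called in it (0.185%), and 21 of these were among the 88. The 21 were 20 that were higher and 1 that was lower in reduced intake, and in all 21 Con-Pf was farther from Con than Nic was. In the 21, which this contrast itself picked out, the median size of the difference from Con was 0.17 in Nic and 0.61 in Con-Pf. With 1 probe set that has no symbol they were Nr4a1, Egr1, Egr2, Egr4, Fos, Junb, Arc, Rgs2, Gpr3, Rasl11a, Cited2, Dusp4, Dusp5, Dusp14, Trib1, Pvr, Pdp1, Bmal1, Nfil3 and, lower, Nr1d2. For Nr4a1 Con-Pf minus Nic was 0.97 (95% interval 0.67 to 1.27, adjusted p from limma 0.001), for Arc 0.85 (0.61 to 1.09) and for Nr1d2 -0.24 (-0.32 to -0.17). Without Con 3 and Con 5, 16 of the 21 were called in reduced intake minus Con, and the median ratio of the difference without them to that with them was 0.951.

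The other 67 did not pass in Con-Pf minus Nic. Of these, 26 had an unadjusted p under 0.05 in that contrast and 41 had not, 32 of the 41 being higher and 9 lower in reduced intake. In the 41 the median size of the difference from Con was 0.22 in Nic and 0.24 in Con-Pf. Of the 67, 4 were called without Con 3 and Con 5. In the 41 the median ratio of the difference without these arrays to that with them was 0.727. An adjusted p that misses the threshold does not show that Nic and Con-Pf are alike, so the intervals are given with the genes that follow.

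Eepd1, an endonuclease family protein that is also known as a target of liver X receptors, was one of the 4. Its levels were 7.88 to 8.09 in Con (median 7.95), 8.08 to 8.37 in Nic (median 8.14) and 8.09 to 8.31 in Con-Pf (median 8.22). Of the Nic arrays 6 and of the Con-Pf arrays all 10 were above every Con array, and the remaining Nic array was level with the top of Con. The difference was 0.23 (95% interval 0.15 to 0.31, adjusted p from limma 0.00276), with 0.22 in Nic and 0.24 in Con-Pf, and Con-Pf minus Nic was 0.02 (95% interval -0.07 to 0.12). It was 0.21 without Con 3 and Con 5 (adjusted p 0.0327). Per3, Bhlhe40 and Slc19a3, described above, were the other 3. Their intervals of Con-Pf minus Nic did not hold 0, at -0.24 to -0.06 for Per3, -0.30 to -0.07 for Bhlhe40 and -0.39 to -0.14 for Slc19a3, so that Eepd1 was the only one of the 4 among the 41.

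Parm1, a membrane mucin-like protein, lay at 8.17 to 8.65 in Con (median 8.52), 8.62 to 8.88 in Nic (median 8.74) and 8.69 to 9.01 in Con-Pf (median 8.73). Above Con were 6 Nic and 10 Con-Pf arrays, and the difference was 0.29 (adjusted p from limma 0.01), with 0.27 in Nic and 0.31 in Con-Pf and -0.09 to 0.17 as the 95% interval of Con-Pf minus Nic. Con 3 and Con 5 were its lowest Con arrays, and without them the difference was 0.20 (adjusted p 0.0984).

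S100a11, a calcium-binding protein, and Prr13 had the largest rises among genes of this kind. S100a11 lay at 6.19 to 7.20 in Con (median 6.84), 7.01 to 7.48 in Nic (median 7.23) and 6.90 to 7.59 in Con-Pf (median 7.13), so that the groups overlapped. Its difference of 0.44 (0.45 in Nic, 0.42 in Con-Pf, adjusted p from limma 0.0398) was 0.29 without Con 3 and Con 5 (adjusted p 0.447). Prr13 lay at 8.57 to 9.56 in Con (median 9.41), 9.22 to 9.92 in Nic (median 9.66) and 9.53 to 9.85 in Con-Pf (median 9.74). Both low Con values were Con 3 and Con 5, and its difference of 0.43 (adjusted p from limma 0.0399) was 0.24 without them (adjusted p 0.344). For S100a11 Con-Pf minus Nic was -0.03 (95% interval -0.27 to 0.21), and for Prr13 it was 0.07 (-0.16 to 0.31).

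Of the 10 genes whose larger p in Nic minus Con and Con-Pf minus Con was smallest, 5 have not been described yet. They were Med19, a subunit of the Mediator complex (0.25 in Nic, 0.22 in Con-Pf), Pqbp1, a splicing-related protein (0.24 and 0.23), Ech1, an enzyme of fatty acid oxidation (0.24 and 0.24), Abhd11 (0.22 and 0.21), and Dctn3, a dynactin subunit (0.19 and 0.21). Nic and Con-Pf differed from each other by at most 0.04 in these. None of the 5 passed without Con 3 and Con 5, where the adjusted p ran from 0.262 for Med19 to 0.328. Fabp7, a fatty acid binding protein of astrocytes and progenitors, had 0.28 in Nic and 0.29 in Con-Pf, and Car4, a carbonic anhydrase, 0.24 and 0.29. Cdkn1a, the cell cycle inhibitor p21, rose by 0.29, with 0.24 in Nic and 0.34 in Con-Pf. Without Con 3 and Con 5 Fabp7, Car4 and Cdkn1a did not pass either. Their pooled differences were then 0.18, 0.19 and 0.19 (adjusted p from limma 0.469, 0.451 and 0.449).

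**Figure D3:**
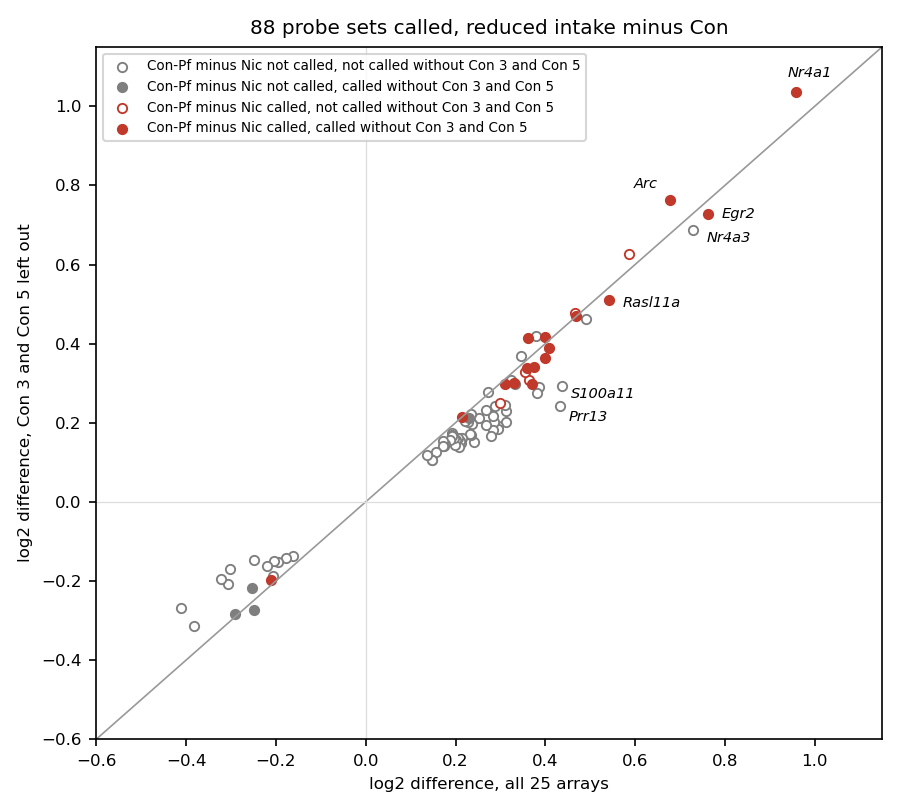
Log2 difference of the 88 called probe sets with all 25 arrays (x axis) and with Con 3 and Con 5 left out (y axis), in red where Con-Pf minus Nic was called and grey where it was not, filled where the probe set was still called without these arrays. Red points lie near the line of equality, with a median ratio of 0.951, and most grey points lie nearer to 0 than that line.

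Called probe sets with no single gene symbol numbered 15. The largest fall of all was in one of them, probe set 10868302, at 8.47 to 9.43 in Con (median 8.78), 8.05 to 8.51 in Nic (median 8.37) and 8.23 to 8.81 in Con-Pf (median 8.53). Its difference was -0.41 (adjusted p from limma 0.0354), with -0.50 in Nic and -0.32 in Con-Pf, and -0.27 without Con 3 and Con 5 (adjusted p 0.397). The study lists this probe set as LRRGT00176, the only gene past its thresholds in Nic against Con, and places low confidence in it. In probe set 10824821 all 7 Nic arrays were above every Con array, at 7.91 to 8.29 against 7.34 to 7.89. In Con-Pf it ranged from 7.37 to 8.34. Its difference was 0.39 (adjusted p from limma 0.0413), and 0.29 without Con 3 and Con 5 (adjusted p 0.451). Both probe sets were picked out after their values were seen.

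Genes of nicotinic and cholinergic signalling were examined since Nic dams had taken nicotine. Of 15 measured (20 listed), 1 rose and 0 fell, against 0.679% and 0.122% of all genes, at a median of 0.06. It was Tmem35a, which encodes NACHO, a chaperone that helps nicotinic receptors to assemble. Its levels were 7.66 to 7.93 in Con (median 7.75), 7.79 to 8.06 in Nic (median 8.00) and 7.78 to 8.03 in Con-Pf (median 7.91). Above Con were 5 Nic and 4 Con-Pf arrays, and the difference was 0.18 (adjusted p from limma 0.0304), with 0.20 in Nic and 0.15 in Con-Pf. Without Con 3 and Con 5 it was 0.15 (adjusted p 0.312). Chrnb2, a subunit of the main brain nicotinic receptor, did not pass, at 0.14 in each group (adjusted p from limma 0.0747), nor did Slc5a7, the choline transporter of cholinergic neurons (-0.24, adjusted p 0.0958).

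Pathways that respond to food intake were examined since food was what the design changed. None of the 36 measured genes of insulin, IGF and nutrient sensing (46 listed) and none of the 26 of cholesterol and fatty acid synthesis (31 listed) was called by limma, with 9 and 5 at an unadjusted p under 0.05 and medians of -0.02 and 0.02. With 0.679% of all genes higher and 0.122% lower, a count of 0 in lists of this size is near the background. Igf1r, the receptor of IGF1, had -0.18 (adjusted p from limma 0.107) and -0.06 without Con 3 and Con 5, and Igfbp5 had 0.20 (adjusted p 0.116). Of the 18 glucocorticoid receptors and targets measured (24 listed), Cdkn1a rose and Klf9 fell, and the median was -0.01. Fkbp5, a chaperone of the glucocorticoid receptor and among its surest targets, had -0.16 (adjusted p 0.1), Tsc22d3 -0.13 (adjusted p 0.059) and the receptor itself, Nr3c1, -0.09.

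Counts in the stress lists were 0 or 1, and with the same background a 0 in lists of this size says little. Heat shock and chaperones had 0 of 20 called by limma (23 listed), with 8 at an unadjusted p under 0.05, 17 of 20 higher and a median of 0.07. Over all genes 60.3% were higher, called or not. Bag3, a co-chaperone, was nearest, at 0.22 (adjusted p 0.0676). The integrated stress response had 0 of 25 (28 listed), with 12 at an unadjusted p under 0.05 and a median of 0.03, and in it Gadd45a had 0.32 (adjusted p 0.0614) and Atf4 0.12. Metallothioneins and oxidative stress had 1 of 27 (29 listed), Nqo2, a quinone reductase. Nqo2 lay at 6.97 to 7.44 in Con, 7.31 to 7.56 in Nic and 7.14 to 7.45 in Con-Pf, overlapping throughout. Its difference was 0.23 (adjusted p from limma 0.0322), with 0.27 in Nic and 0.19 in Con-Pf. Without Con 3 and Con 5 the difference was 0.20 and did not pass (adjusted p from limma 0.299).

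The large housekeeping lists had no call by limma, and their offsets were smaller without Con 3 and Con 5. Having no call is near the background for these lists too, with 0.679% of all genes called higher and 0.122% called lower. Whether called or not, 60.3% of all genes were higher. Of 66 subunits of oxidative phosphorylation (74 listed), 63 were higher, at a median of 0.14, which was 0.03 without these arrays. Of 68 cytosolic ribosomal proteins (79 listed), 66 were higher, at a median of 0.13, which was 0.02 without them. Unadjusted, 33 and 27 of these were under 0.05. Scores of the oxidative phosphorylation list were -0.30 in Con 3 and -0.41 in Con 5, against -0.13 to 0.10 in the other Con arrays, -0.03 to 0.11 in Nic and -0.06 to 0.15 in Con-Pf. For the ribosomal list they were -0.35 and -0.46, against -0.16 to 0.17 in the other Con arrays. The 30 proteasome subunits went from 0.09 to 0.03, and 27 genes of oxidative stress from 0.11 to 0.03. The median of all genes was 0.02 with and 0.02 without these arrays.

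Genes of striatal transmission gave no call by limma. This held for 20 of dopamine receptors and signalling (29 listed, 5 at an unadjusted p under 0.05, median -0.01), 17 of neuropeptides (25 listed, 4, median 0.07), 28 glutamate and GABA receptors (36 listed, 6, median -0.06) and 28 of synaptic vesicles (32 listed, 8, median 0.01). It also held for 12 of DNA methylation and demethylation (21 listed, 3, median 0.03). With 0.679% of all genes higher and 0.122% lower, a count of 0 in lists of this size is near the background and says little. Syp, a synaptic vesicle protein, came nearest with 0.18 (adjusted p 0.074), and Grin2b, an NMDA receptor subunit, had -0.21 (adjusted p 0.12) and -0.05 without Con 3 and Con 5.

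**Figure D4:**
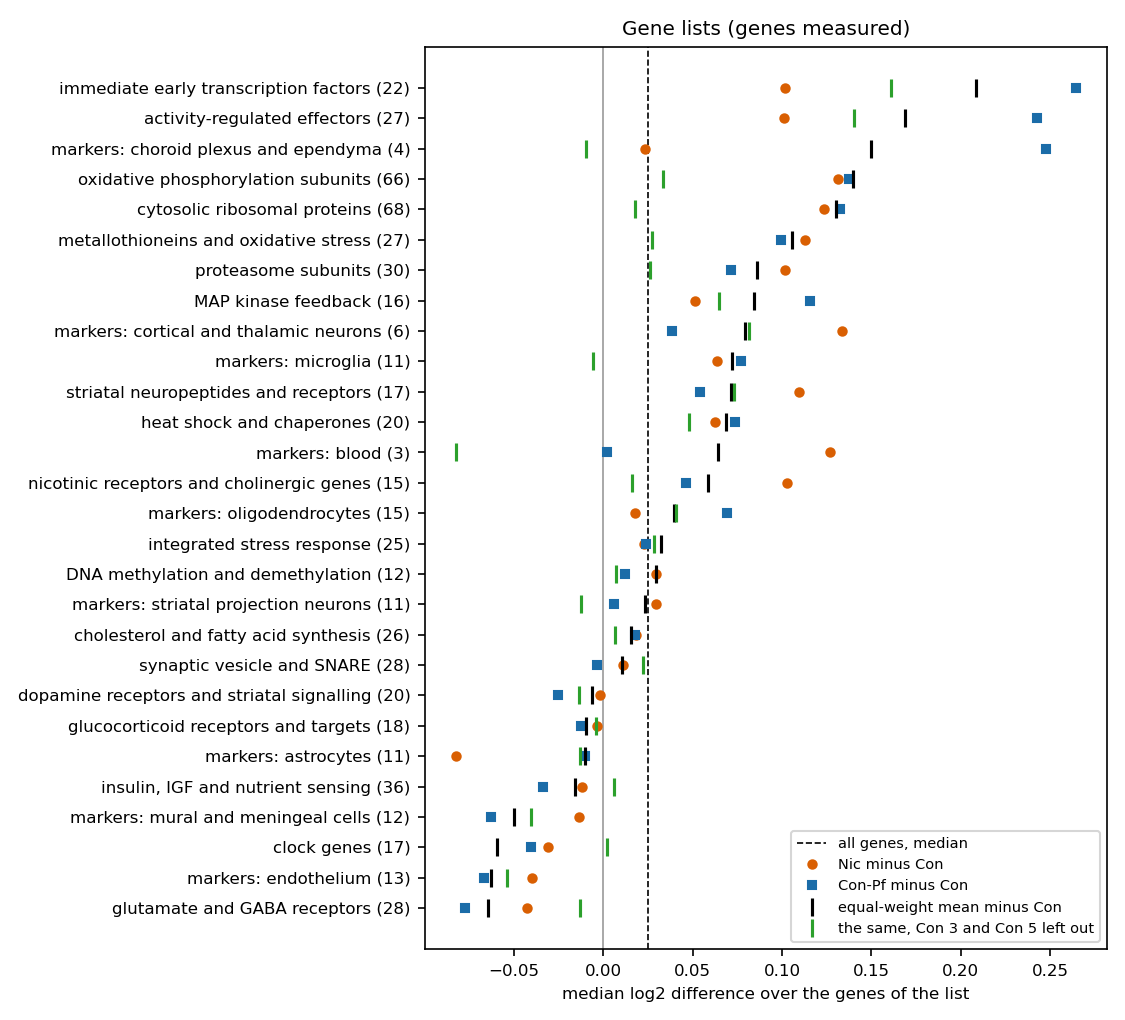
Median log2 difference from Con (x axis) over the measured genes of each list (y axis, with their number), for Nic as orange circles, Con-Pf as blue squares and their equal-weight mean as black marks, and for that mean with Con 3 and Con 5 left out as green marks; the dashed line is the median of all genes. The black and green marks of the immediate early and activity-regulated lists lie farthest right, while the green marks of oxidative phosphorylation and ribosomal proteins fall to 0.03 and 0.02. The circles of these 2 leading lists (0.10 each) do not lie farthest right. Oxidative phosphorylation (0.13) and ribosomal proteins (0.12) are among the lists beyond them in Nic. In Con-Pf the choroid plexus and ependyma list (0.25) lies between the squares of the leading lists (0.26 and 0.24).

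The tissue label was checked against markers. Of 12 markers of striatal projection neurons 11 were measured, with mean log2 levels of 10.8 to 13.3. In the 9 marker lists, which also cover cortical neurons, choroid plexus and ependyma, oligodendrocytes, astrocytes, microglia, endothelium, mural cells and blood, 0 genes were called by limma. Since 0.679% of all genes were higher and 0.122% lower, this count is near the background. Scores of the striatal list were -0.04 to 0.08 in Con, -0.03 to 0.04 in Nic and -0.12 to 0.05 in Con-Pf. The choroid plexus and ependyma list, with 4 of 14 measured, varied most, from -0.69 to 1.78 in Con, -0.74 to 0.60 in Nic and -0.67 to 2.08 in Con-Pf. Blood, with 3 of 6 measured, was at -0.48 to 0.48, -0.10 to 0.42 and -0.24 to 0.31, and Con 3 and Con 5 were low in it, at -0.42 and -0.48. Microglial scores were -0.18 and -0.25 in these arrays, against -0.10 to 0.14 in the other Con arrays, -0.05 to 0.09 in Nic and -0.03 to 0.08 in Con-Pf. The part of these cells in the calls was not tested.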

How the data were processed

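Arrays of the Affymetrix rat gene 1.0 ST type, which carry sets of short probes along each transcript, were run for 25 rats. The deposited table holds log2 values. The authors made them with RMA, a method that subtracts background, brings all arrays to a common distribution (quantile normalization) and combines the probes of a set. Software named in the submitters' processing notes is Affymetrix Expression Console 1.1. Before deposit the authors had removed 2 Con arrays and 1 Nic array. The table has 25 columns, all used here, 8 Con, 7 Nic and 10 Con-Pf, with groups taken from the sample titles. Since the distributions were made alike, differences are relative to the rest of the transcriptome. Precision is limited by the number of arrays, and detection of single probes above background was not analysed here.

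Of 29214 probe sets, the brighter 14607, with a mean no lower than the median (quantile 0.5), entered the fit. In the probe annotation used here 9606 of these carry 1 gene symbol, 100 several and 4901 none. Symbols were updated through Entrez identifiers to RefSeq, and a gene with several probe sets was taken by the brightest. Fosl2 had a second kept probe set with a like difference (0.46), and the called probe set of Klf5 (0.32) is not its brightest, which had 0.05. A linear model with 3 group means was fitted with limma 3.58.1 in R 4.3.3, with empirical Bayes moderation. The contrasts were (Nic + Con-Pf)/2 - Con, its parts, and Con-Pf - Nic. Tests were two-sided, and p-values were adjusted by the Benjamini-Hochberg procedure over all probe sets that entered (threshold 0.05). Intervals are 95% intervals. The fit was tested on simulated data. Plots used matplotlib 3.10.9 under Python 3.11.15, and promoter windows came from RefSeq.

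The members, the gene lists and the alternatives were chosen with earlier results of these data known. Named genes were the 12 called genes with the largest rise, all called falls and the 5 next by p, the 10 called genes whose larger p of the Nic and Con-Pf differences was smallest with the same sign, and up to 3 members of each list by p. Other list members and probe sets were picked as examples with their values in view. The alternatives were a t-test with unequal variances, as the methods name only Student's t-test, one with pooled variance (added after the data were seen), the 17 animals as 1 group, trended and robust moderation, weights for the arrays, a filter at the 0.75 quantile or none, further quantile normalization, centring on the array median, Con-Pf 9 and 10 left out or counted as Con, Con 3 and 5 left out, a replicate block, and each array left out. Behaviour, qRT-PCR and DNA methylation were not analysed here.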

Additional observations from a re-analysis of the deposited data

Results flagged for a closer look

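For each of 38 named and called genes the highest and the lowest array of each group were compared with the others of the group, 114 groups in all. In 6 of them 1 array stood far from the rest, and chance alone sets about 1 in 20 groups apart (5%). Nic 7 was low for Fosl2, at a log2 level of 8.991 against 9.296 to 9.516 in the other Nic arrays, and high for Slc24a4, at 9.678 against 9.231 to 9.415. Nic 1 was low for Prr13, at 9.218 against 9.631 to 9.916, and for Cdkn1a, at 8.09 against 8.333 to 8.508. Con 7 was high for Rgs2, at 10.63 against 10.25 to 10.42 in the other Con arrays, and low for Nr1d2, at 10.19 against 10.33 to 10.43.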

How the results depend on the processing

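The counts of 72 higher and 16 lower probe sets depended on the processing, and for the settings that follow the cause was not tested. They were 28 and 3 with a t-test of unequal variances on 17 against 8 animals, 34 and 6 with pooled variance, which was chosen after seeing the data (both after Benjamini-Hochberg), 36 and 9 with array weights, where Con 5 and Con 3 had the lowest weights (0.191 and 0.348), 28 and 5 with no filter, 44 and 23 after further quantile normalization, and 50 and 10 with Con-Pf 9 and 10 left out. With Con 3 and 5 left out they were 17 and 5, and with Con-Pf 9 and 10 moved to Con they were 0 and 0. The 7 probe sets at the study's thresholds became 11 with the 17 animals as 1 group and with the pooled-variance t-test, 20 with no filter, 2 with the 0.75 quantile filter, where 7304 probe sets were tested, and 3 with Con-Pf 9 and 10 as Con. The 21 called probe sets that also differed between Con-Pf and Nic became 11 with the stricter filter and 0 with Con-Pf 9 and 10 as Con. Moderation with trend and robust (78 and 17) and centring on the median (66 and 12) moved no count by over 1.5 times. Under the alternatives run, no named gene called here changed its sign.

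Leaving out 1 array at a time, the higher calls ran from 23 to 624, the lower from 5 to 126, those at the study's thresholds from 6 to 12 and those that differed between Con-Pf and Nic from 14 to 27. The 88 calls fell to 58 and 41 when Nic 2 or Nic 6 was left out, and to 36, 28 and 29 when Con 1, Con 3 or Con 5 was. They rose to 244 when Nic 1 was left out, and to 300, 314, 750 and 324 when Con 4, Con 6, Con 7 or Con 8 was. No Con-Pf array moved the count by over 1.5 times.

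Replicate numbers were not used as pairs in the main fit, and the values that follow do not settle whether they pair the samples. Of 21 pairs with the same number among replicates 1 to 7, 10 had residuals that correlated above 0.1 (range -0.36 to 0.34). The pairs of replicate 6 all lay between 0.18 and 0.22. Of 21 arrays, 5 correlated best with an array of their own number. With the replicate block, 152 were higher and 43 lower, 10 differed between Con-Pf and Nic, and 9 passed the study's thresholds. The same arrays with no block gave 72 and 17, with 13 that differed. The median standard error of the pooled difference was 0.0514.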

Other observations

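Further called genes that stand in no list were small in their difference. Edn1, which encodes endothelin 1, a peptide that constricts vessels, had log2 levels of 7.15 to 7.57 in Con (median 7.38), 7.21 to 7.79 in Nic (median 7.60) and 7.65 to 7.97 in Con-Pf (median 7.84), a difference of 0.33 (adjusted p from limma 0.00998). Phlda1 (0.31, adjusted p 0.00545), Pvr, a cell adhesion receptor (0.31, adjusted p 0.00148), Bcl6, a transcriptional repressor (0.25, adjusted p 0.0186), Rab3b, a GTPase of secretory vesicles (0.29, adjusted p 0.0386), and Zfp36l1, which destabilizes mRNAs with AU-rich elements (0.28, adjusted p 0.0344), were higher too. Of these, Pvr was called without Con 3 and Con 5 (adjusted p 0.0102). Pdp1, the phosphatase that activates pyruvate dehydrogenase, rose by 0.22 (adjusted p from limma 0.0104), with 0.09 in Nic and 0.34 in Con-Pf, and was called without these arrays as well (adjusted p 0.0458). Tox, a DNA-binding protein of the HMG-box family, rose by 0.19, with 0.22 in Nic and 0.17 in Con-Pf (adjusted p from limma 0.0354). Without Con 3 and Con 5 Tox did not pass (0.17, adjusted p from limma 0.279). These genes were picked out after their values were seen.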
